A study of Mus musculus with 31 samples.

Results

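The 38 genes described here encode the collagens, laminins and other proteins that make up the extracellular matrix of the fetal mouse gonad. They were taken as a named list, and for each gene the probe set with the highest mean log2(signal + 16) over all 31 arrays was used, from among probe sets annotated with that gene symbol alone. All 38 were found among the 18193 genes named on the array, and 84 probe sets carried them, with 29 genes having several. The 13 basement membrane genes, 4 cartilage-type collagens and 21 interstitial matrix genes were kept apart. A gene was tested when its signal lay above the array median on at least 3 arrays, which left 36 members among 11777 genes. Col9a1 and Col9a2 lay below the median on all 31 arrays and were not tested. Col9a3, Col11a1 and Fbln2 lay above the median on 15, 21 and 25 arrays, and the other 33 on all 31.

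Each array measured RNA from 1 pair of gonads at embryonic day 14.5, separated from the mesonephros, with 40 ng of total RNA amplified. All embryos carried the Sf1-cre transgene, which deletes floxed alleles in somatic cells of the gonad that express Sf1, so germ cells and any somatic cell without Sf1 keep both genes. In double knockouts (DKO) both alleles of Ctnnb1 and both alleles of Sox9 were floxed. In Ctnnb1KO gonads Ctnnb1 was floxed on both alleles and Sox9 on 1 allele, and in Sox9KO gonads Sox9 was floxed on both alleles and Ctnnb1 on 1 allele. Control gonads (Ctr) were not wild type, because they carried the transgene and 1 floxed allele of each gene. The genotypes were collected as XY and as XX gonads, 4 arrays each, except XY DKO with 3. Ctnnb1 encodes beta-catenin, the intracellular effector of canonical WNT signalling, and Sox9 encodes the transcription factor that directs Sertoli cell differentiation. The series asks what becomes of a gonad that lacks one or both factors.

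Basement membranes are thin sheets of collagen IV and laminin networks joined by nidogens and perlecan, and interstitial matrix is the fibrous mesh of fibrillar collagens, fibronectin, proteoglycans and elastic fibres between cells. In the fetal testis, Sertoli cells and the peritubular myoid cells around them lay down the basement membrane that encloses the testis cords. In the fetal ovary, pregranulosa cells and germ cells lie in cords that are less sharply bounded from the stroma.

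Signals are linear MAS5 intensities scaled to the same trimmed mean of 500 on each array, and array medians ran from 121 to 169. Correlations between arrays of a group ran from 0.969 to 0.984. Sox9 averaged 23.0 ± 16.7 in XY Sox9KO and 26.0 ± 15.0 in XY DKO gonads, against 929 ± 94.5 in XY Ctr gonads (SD, n = 4, 3 and 4). Group means of Ctnnb1 lay between 12319 and 13816, and since no source here says whether its probe set lies within the deleted exons, it checks no label. Replicate 4 of XX Ctnnb1KO stood apart: its Xist signal was 51.1, against 7886 to 8553 on the other 3 arrays of its group, while its Y-linked Eif2s3y was 29.6, within the range of XX arrays. For the members, comparisons that use XX Ctnnb1KO are therefore given with and without that array, and for other genes only with it. Differences below are log2 differences of signal + 16 with their SE from 1 limma fit over all 31 arrays, and a gene is called at a Benjamini-Hochberg adjusted p under 0.05 over the 11777 genes.

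In XY Ctr gonads most matrix genes had more signal than in XX Ctr gonads. Of the 36 members tested, 26 were called higher and 2 lower, where 18% of all genes tested were called higher and 19.8% lower. The median log2 difference was 0.60 over the members and -0.02 over all genes tested. By class, 8 of 13 basement membrane genes, both tested cartilage-type collagens and 16 of 21 interstitial genes were called higher, and 1 basement membrane gene, Lamb2, and 1 interstitial gene, Thbs2, were called lower. In whole gonads, more cells of a type and more RNA per cell cannot be told apart.

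The collagen IV genes Col4a1 and Col4a2, which encode the chains of the most widespread collagen IV molecule, lie head to head on chromosome 8 and are shown because they differed together in the comparisons below. In the RefSeq (GRCm38.p6) windows used here, their transcript starts lie 21 bases apart on opposite strands, at 11312826 for Col4a1 and 11312805 for Col4a2. The first bases of these transcripts therefore overlap. The gene coordinates listed for Col4a1 end at 11312889, beyond that start. The windows from 250 bases before to 50 bases after each start, Col4a1 on the minus strand at chr8:11312777-11313076 and Col4a2 on the plus strand at chr8:11312555-11312854, share 78 bases, which are in capitals in each sequence, 5′ to 3′.
Col4a1: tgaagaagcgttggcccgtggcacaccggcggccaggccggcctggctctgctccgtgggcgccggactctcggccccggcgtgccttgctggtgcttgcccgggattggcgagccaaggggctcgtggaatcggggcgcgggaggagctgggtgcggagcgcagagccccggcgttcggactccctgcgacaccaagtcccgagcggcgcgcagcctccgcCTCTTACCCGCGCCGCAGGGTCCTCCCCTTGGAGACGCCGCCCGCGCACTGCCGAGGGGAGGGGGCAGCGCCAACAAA
Col4a2: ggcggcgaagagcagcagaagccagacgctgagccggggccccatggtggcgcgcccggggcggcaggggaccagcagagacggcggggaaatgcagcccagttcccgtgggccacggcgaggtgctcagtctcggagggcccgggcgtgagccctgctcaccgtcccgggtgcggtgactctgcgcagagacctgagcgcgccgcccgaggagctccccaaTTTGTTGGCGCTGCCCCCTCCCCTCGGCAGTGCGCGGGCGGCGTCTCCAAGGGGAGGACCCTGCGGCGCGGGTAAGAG
Their GC contents were 74.0% and 73.7%, against a median of 52.7% over 32851 RefSeq windows of that length.

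Col4a1 signal was 12380.2, 13066, 13084 and 11079.9 in the 4 XY Ctr gonads, against 5065, 6262, 6035 and 6423 in the 4 XX Ctr gonads. Every XY Ctr array lay above every XX Ctr array, a log2 difference of 1.06 ± 0.08 (± SE here and below, adjusted p = 4.37e-12). Col4a2 signal was 6196, 6539, 5783 and 5445 in XY Ctr gonads and 2539.6, 2716, 2925 and 3029.9 in XX Ctr gonads, again without overlap and with a difference of 1.09 ± 0.09. Col18a1, a collagen of vascular and epithelial basement membranes from which endostatin is cut, differed by 0.52 ± 0.12.

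Among the laminin chains, the XY Ctr excess lay in alpha 2, alpha 4 and beta 1. Lama2, the alpha chain of muscle and nerve basement membranes, had signals of 1175, 1025, 1309 and 1097 in XY Ctr gonads, against 328, 323, 328 and 261 in XX Ctr gonads. These groups did not overlap, and the 3.58-fold difference (1.84 ± 0.18, adjusted p = 9.18e-10) was the largest among basement membrane genes. Lama4, an alpha chain of blood vessel basement membranes, averaged 1563 ± 50.1 in XY Ctr and 877 ± 28.1 in XX Ctr gonads (SD, n = 4 each), a difference of 0.82 ± 0.08. Lamb1, the beta chain that occurs early and widely in embryos, differed by 0.60 ± 0.06. Lamb2, the beta chain of kidney filter and neuromuscular basement membranes, was lower in XY Ctr gonads, at 448, 392, 353 and 352, against 499, 630.1, 812 and 620.4 in XX Ctr gonads. Its groups did not overlap and its log2 difference was -0.69 ± 0.16 (adjusted p = 0.000695). The alpha chains Lama1 and Lama5 and the gamma chain Lamc1, shared by most laminins, were not called, with differences of -0.20, -0.19 and 0.11.

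Nid1, a nidogen that bridges the laminin and collagen IV networks, had signals of 5868, 5466, 5723 and 5221 in XY Ctr gonads and 3502, 3301, 3151 and 3393 in XX Ctr gonads. The lowest XY Ctr array lay well above the highest XX Ctr array, with a difference of 0.74 ± 0.05 (adjusted p = 2.84e-12). Its partner Nid2 differed by 0.21 ± 0.09 and missed the threshold (adjusted p = 0.0683). Hspg2, which encodes the heparan sulfate proteoglycan perlecan, differed by 0.55 ± 0.11.

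**Figure D1:**
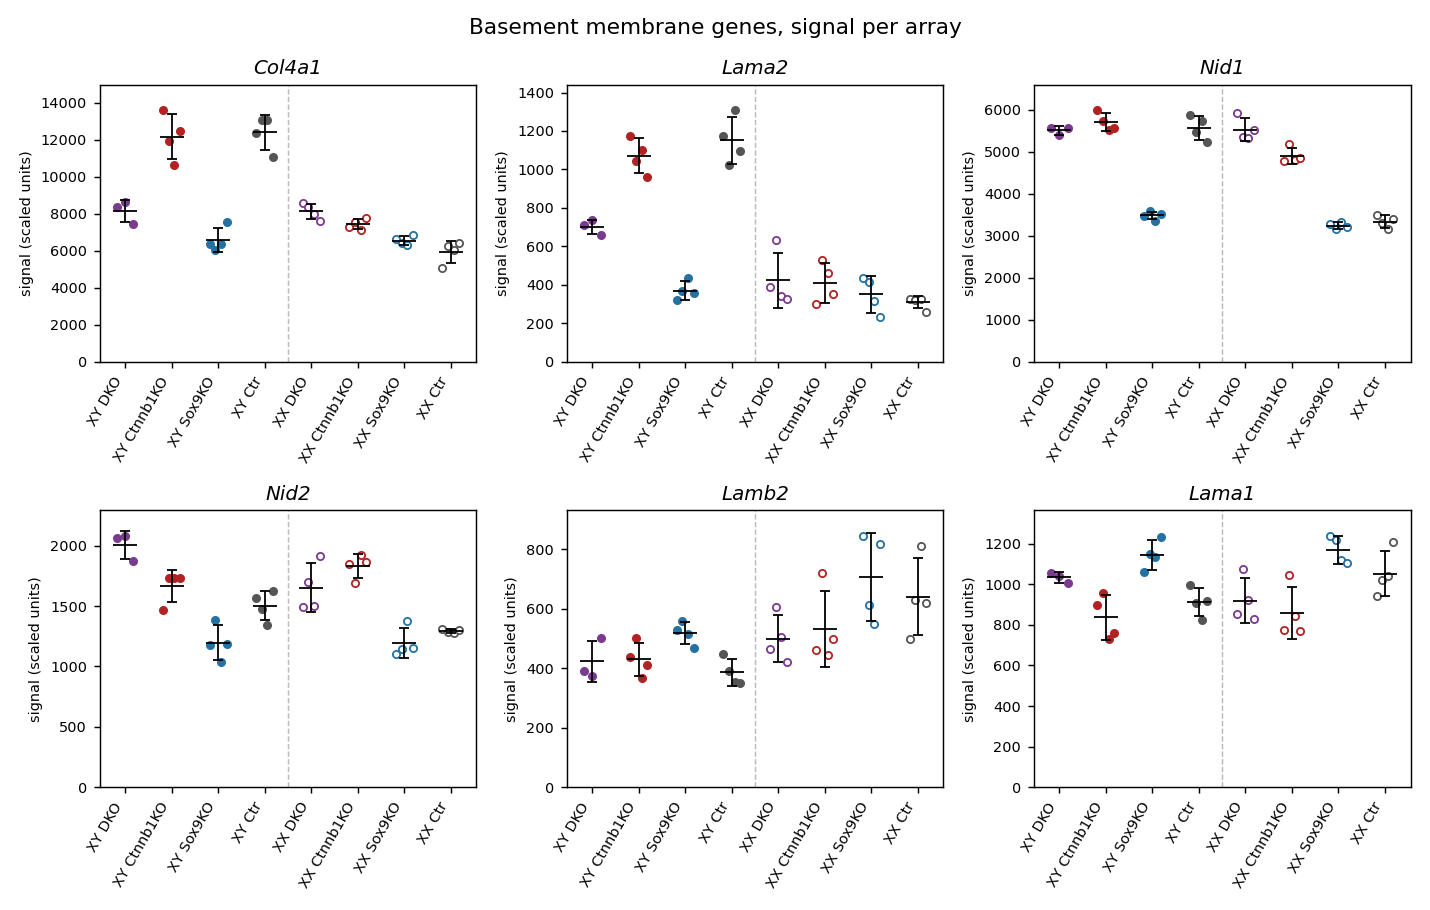
Signal in scaled units (y axis, from 0) of 6 basement membrane genes on each array, by group (x axis), with XY groups as filled circles left of the dashed line, XX groups as open circles right of it, bars for means and whiskers for SD. XY Sox9KO arrays of Col4a1, Lama2 and Nid1 lie among or near those of XX Ctr, and Nid1 in XX DKO gonads (5322 to 5915) lies at the level of XY Ctr gonads (5221 to 5868).

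Cartilage-type collagens form thin fibrils in hyaline cartilage, and the 2 that could be tested were higher in XY Ctr gonads. Col9a3 encodes a chain of collagen IX, which decorates collagen II fibrils. Its signal was 1219, 2303, 1747 and 1151 in XY Ctr gonads, against 163, 140.4, 162 and 159.9 in XX Ctr gonads. Replicate 2 of XY Ctr was the highest, but all 4 XY Ctr arrays lay far above the XX Ctr arrays, a 9.05-fold difference (3.18 ± 0.23, adjusted p = 9.41e-13). Col11a1, a chain of the collagen that starts cartilage fibrils, was 298, 357, 318 and 268 in XY Ctr gonads and 191, 101, 156 and 121 in XX Ctr gonads, with no overlap and a difference of 1.07 ± 0.17. The partner chains of Col9a3 did not share its range. Col9a1 averaged 46.9 ± 14.1 in XY Ctr and 39.2 ± 18.0 in XX Ctr gonads, and Col9a2 averaged 76.4 ± 16.4 in XY Ctr and 85.4 ± 17.9 in XX Ctr gonads (SD, n = 4 each). In a list of 10 other cartilage genes, 5 were tested, and in XY Ctr against XX Ctr gonads Cnmd, a cartilage and vessel-inhibiting membrane protein, was called higher and Sox5, a partner of Sox9 in cartilage, was lower (-0.64 ± 0.13).

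Interstitial collagens were higher in XY Ctr gonads by smaller steps. All 7 fibrillar and microfibril chains were called, with log2 differences from 0.40 for Col3a1 to 0.82 for Col6a1. Col1a2, a chain of the main fibrillar collagen, was 14932, 15619.7, 16023 and 15011 in XY Ctr gonads, against 9094, 9599, 9763 and 9551 in XX Ctr gonads. Its groups did not overlap (0.70 ± 0.08, adjusted p = 1.42e-08), and its partner Col1a1 differed by 0.46 ± 0.08. Col5a1 and Col5a2, whose collagen sets fibril width, differed by 0.71 ± 0.12 and 0.67 ± 0.15. Col6a2, which joins Col6a1 in beaded microfibrils, differed by 0.61 ± 0.10.

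Among interstitial glycoproteins and proteoglycans the differences were wider. Vcan encodes versican, a large hyaluronan-binding proteoglycan of embryonic stroma. Its signal was 3042, 3272, 2923 and 3396 in XY Ctr gonads, against 854, 589, 582 and 673 in XX Ctr gonads. The lowest XY Ctr array was above every XX Ctr array by a wide margin, and the 4.65-fold difference had an adjusted p of 2.31e-15 (2.22 ± 0.12). Fbln2, a fibulin that binds fibronectin and basement membrane proteins, was 502, 489, 473 and 503 in XY Ctr gonads and 162, 148, 161 and 141 in XX Ctr gonads, with no overlap and a difference of 1.59 ± 0.19. Fibronectin (Fn1) differed by 0.92 ± 0.07, Fbln5, needed for elastic fibre assembly, by 0.88 ± 0.15, and Fbln1 by 0.40 ± 0.13. The Fbln1 call was lost without any 1 of XX Ctr replicate 1 and XY Ctr replicate 1 and 3 (0.33 to 0.36, adjusted p up to 0.069). Elastin (Eln) averaged 1135 ± 208 in XY Ctr and 775 ± 132 in XX Ctr gonads and missed the threshold (adjusted p = 0.0578).

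The small leucine-rich proteoglycans bind collagen fibrils and growth factors. Bgn (biglycan) was 6292, 5877, 6867 and 6108 in XY Ctr gonads, against 3089, 2951, 2764 and 3070.4 in XX Ctr gonads, without overlap (1.08 ± 0.08, adjusted p = 9.19e-12). Dcn (decorin) differed by 1.22 ± 0.19. Lum (lumican) averaged 1329 ± 161 in XY Ctr and 944 ± 360.5 in XX Ctr gonads (SD, n = 4 each), its groups overlapped, and it was not called.

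Matricellular proteins regulate cell adhesion without building the scaffold, and they did not share one direction. Thbs2, a thrombospondin that binds matrix proteases and limits vessel growth, was 360.5, 311, 314 and 474 in XY Ctr gonads, against 1612, 1401, 1497 and 1484 in XX Ctr gonads. No XY Ctr array reached the XX Ctr range, and signal was 4.03-fold lower (-2.01 ± 0.15, adjusted p = 5.44e-12). Tnc (tenascin C), found at sites of tissue remodelling, was 449, 633, 505 and 517 in XY Ctr gonads and 391, 283, 364 and 369 in XX Ctr gonads, a difference of 0.56 ± 0.14 without overlap. A weaker Tnc probe set differed by 1.71. Sparc, a collagen-binding protein, differed by 0.41 ± 0.06. Thbs1, an activator of latent TGF-beta, and Postn (periostin), a collagen-binding adhesion protein, were not called, at -0.43 and 0.23.

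**Figure D2:**
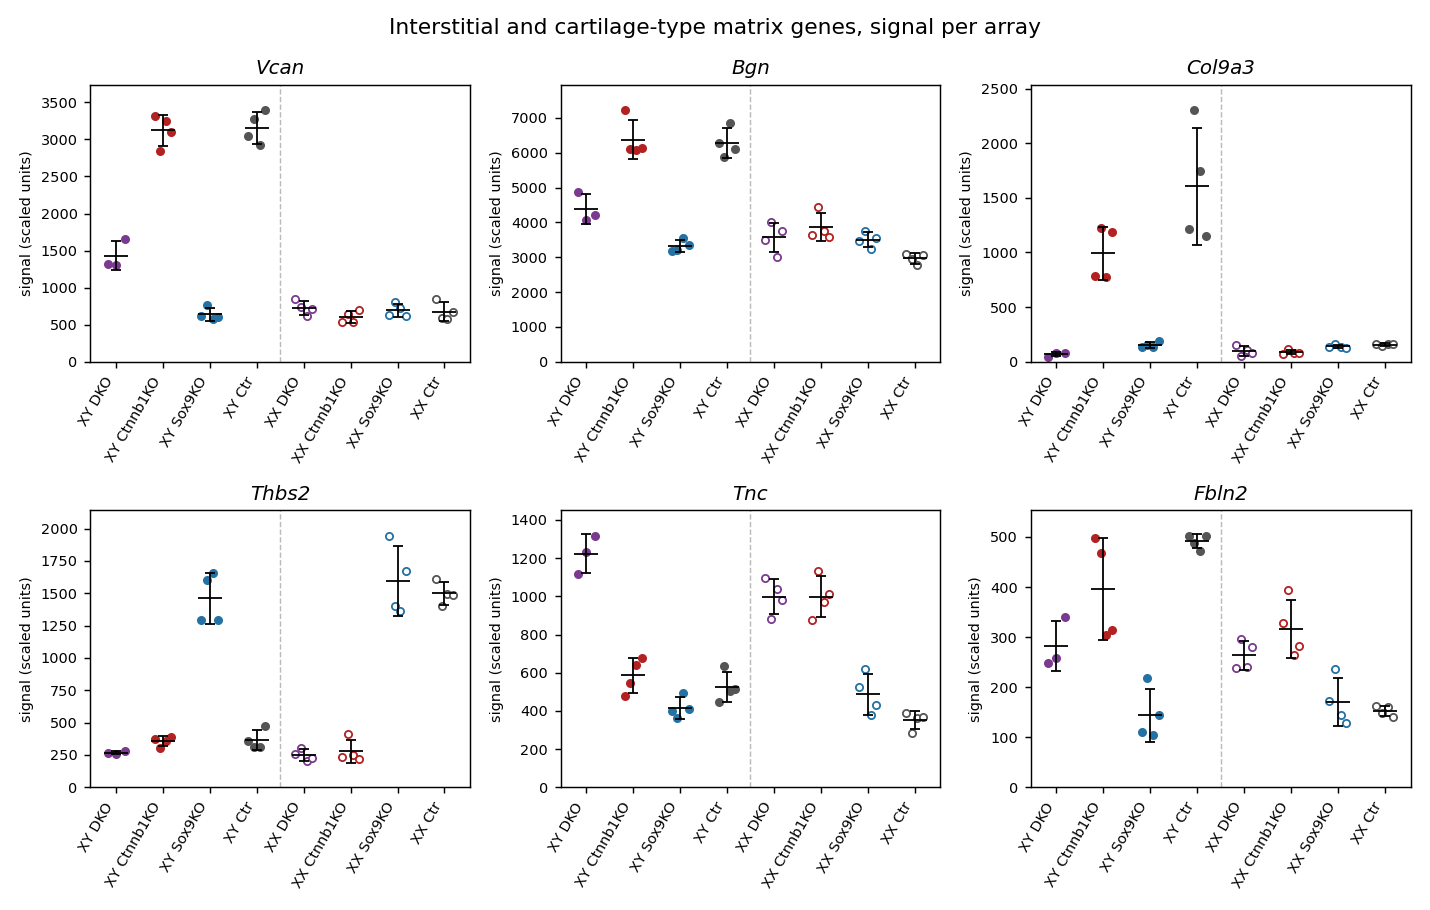
Signal in scaled units (y axis, from 0) of 5 interstitial genes and Col9a3 on each array, by group (x axis), with XY groups as filled circles left of the dashed line, XX groups as open circles right of it, bars for means and whiskers for SD. Thbs2 lies at 1291 to 1947 on the arrays of XY Sox9KO, XX Sox9KO and XX Ctr and at 207 to 474 on all others, and Col9a3 reaches 779 or more only in XY Ctnnb1KO and XY Ctr gonads.

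Markers of several cell types moved in the same comparison, and their part in the matrix differences was not tested. All 9 Sertoli cell markers were called higher in XY Ctr gonads, with summed signal of 24898 to 29245 in XY Ctr and 2572 to 3151 in XX Ctr gonads. All 4 tested fetal Leydig cell markers were higher, at 32849 to 37935 in XY Ctr and 1407 to 2006 in XX Ctr gonads. Of 4 tested peritubular myoid and smooth muscle markers 3 were higher, at 8677 to 10093 in XY Ctr and 3427 to 3771 in XX Ctr gonads. All 7 pregranulosa cell markers were lower, at 1588 to 1770.3 in XY Ctr and 11352 to 12574 in XX Ctr gonads. Of 10 endothelial markers 3 were higher, of 8 tested macrophage markers 1 was lower, and of 3 tested mesonephros markers 1 was higher and 1 lower. Of 7 germ cell markers 1 was higher and 3 lower, and none of 3 tested erythroid markers was called. No marker was listed at 0 on any array.

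XY gonads that had lost Sox9 had less signal of most matrix genes than XY Ctr gonads. In XY Sox9KO against XY Ctr gonads, 24 of 36 members were called lower and 5 higher, where 16% of all genes tested were called lower and 22.7% higher. The median log2 difference was -0.43 over the members and 0.05 over all genes tested. This comparison shares the XY Ctr arrays with the one above, so the values of both are not independent. Lower calls covered 8 of 13 basement membrane genes, both tested cartilage-type collagens and 14 of 21 interstitial genes. The 5 higher calls were the laminin chains Lama1 (0.32 ± 0.10), Lama5 (0.46 ± 0.15) and Lamb2 (0.41 ± 0.16) and the thrombospondins Thbs1 and Thbs2.

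In XY Sox9KO gonads Col4a1 was 6368, 6047, 6379 and 7551, below every XY Ctr array, a difference of -0.91 ± 0.08 (adjusted p = 1.26e-10). Col4a2 was 2833, 3072, 3452 and 3291 in XY Sox9KO gonads, also below every XY Ctr array (-0.92 ± 0.09). Lama2 fell 3.03-fold in XY Sox9KO gonads, to 319, 366, 436 and 358 (-1.60 ± 0.18). These signals were close to those of XX Ctr gonads given above. Lama4, Lamb1 and Nid1 differed by -0.83 ± 0.08, -0.59 ± 0.06 and -0.67 ± 0.05, with no overlap between the groups. Nid2 and Hspg2 fell by smaller steps (-0.33 ± 0.09 and -0.32 ± 0.11), and a weaker Hspg2 probe set differed by 0.06.

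Col9a3 was 137, 149.9, 138 and 193 in XY Sox9KO gonads, 9.21-fold below XY Ctr (-3.20 ± 0.23, adjusted p = 8.18e-13). Col11a1 was 144, 151, 132 and 96.6 in XY Sox9KO gonads, with a difference of -1.16 ± 0.17 and no overlap. Vcan was 622, 771, 573 and 606 in XY Sox9KO gonads, against at least 2923 in XY Ctr gonads (-2.27 ± 0.12, adjusted p = 1.40e-15). Fbln2 (-1.72 ± 0.19), Dcn (-1.03 ± 0.19), Bgn (-0.91 ± 0.08) and Fn1 (-0.74 ± 0.07) fell too. The interstitial collagens fell by 0.25 to 0.55 on the log2 scale in 6 of 7 cases, and Col6a2 (-0.16) was not called. Fbln5 (-0.40 ± 0.15), Fbln1 (-0.43 ± 0.13) and Sparc (-0.41 ± 0.06) were lower. Eln (-0.43), Lum (-0.59) and Postn (-0.20) were not called.

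Thbs2 was higher in XY Sox9KO gonads. It was 1294, 1603, 1655 and 1291 in XY Sox9KO gonads, above every XY Ctr array, a 3.91-fold rise (1.97 ± 0.15, adjusted p = 9.02e-12). Thbs1 was 277, 372, 349 and 349 in XY Sox9KO gonads and 181, 232, 203 and 198 in XY Ctr gonads, without overlap (0.68 ± 0.19). Tnc (-0.33) was not called, while its weaker probe set differed by -1.39. The Lama5 call was lost without any 1 of XY Ctr replicate 1 and XY Sox9KO replicate 4 (0.35 to 0.41, adjusted p up to 0.079). That of Lamb2 was lost without any 1 of XY Ctr replicate 2, 3 and 4 and XY Sox9KO replicate 1, 2 and 3 (0.37 to 0.42, adjusted p up to 0.0947). That of Hspg2 was lost without any 1 of XY Ctr replicate 1 and 3 and XY Sox9KO replicate 2 (-0.29 to -0.26, adjusted p up to 0.0905). That of Fbln5 was lost without any 1 of XY Ctr replicate 1, 2, 3 and 4 and XY Sox9KO replicate 1 and 3 (-0.43 to -0.29, adjusted p up to 0.157).

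Set directly against XX Ctr gonads, XY Sox9KO gonads differed in 1 of 36 members. This was Col6a2, at 5921, 6032, 6489 and 7283 in XY Sox9KO gonads and 5429, 4056, 5104 and 4249 in XX Ctr gonads (0.45 ± 0.10, adjusted p = 0.0386). Of all genes tested, 0.442% were called higher and 0.187% lower. An unadjusted p under 0.05 was reached by 10 members, but the share over all genes tested is not given here. The Col6a2 call was lost without XX Ctr replicate 2 or 3 or XY Sox9KO replicate 3 or 4, with adjusted p up to 0.217 and differences of 0.39 to 0.50. A missed threshold does not show that the other members were equal, and their differences ran from -0.28 for Lamb2 to 0.48 for Fbln5.

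In XX gonads, where Sox9 averaged 29.1 ± 22.8 in XX Sox9KO and 120 ± 76.6 in XX Ctr (SD, n = 4 each), its loss left no member past the threshold. In XX Sox9KO against XX Ctr gonads 0 of 36 members were called by limma, as were 0% of all genes tested in each direction. The 6 members with an unadjusted p under 0.05 were all higher: Col1a1, Col1a2, Col3a1, Fbln5, Bgn and Tnc, with differences of 0.16 to 0.44. Of all 11777 genes tested, 537 had such a p in limma. The effect of Sox9 loss differed between XY and XX gonads in 23 members, 22 lower and 1 (Thbs2) higher in XY, where 10.7% of all genes tested were called lower in XY and 12.7% higher. The widest interactions were Col9a3 (-3.06 ± 0.32), Vcan (-2.32 ± 0.17), Fbln2 (-1.83 ± 0.26) and Lama2 (-1.74 ± 0.25), and Thbs2 was 1.89 ± 0.22. The Fbln5 interaction was lost with the mean of all probe sets (-0.25, adjusted p = 0.438).

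In the comparison of XY Sox9KO with XY Ctr, all 9 Sertoli cell markers were lower (summed signal 2651 to 3157 in XY Sox9KO) and all 4 tested fetal Leydig cell markers were lower (1948 to 2426). Of 4 peritubular myoid and smooth muscle markers 3 were lower (4075 to 5254) and all 7 pregranulosa cell markers were higher (11893 to 13011). Their part in the matrix differences was not tested. Endothelial markers summed to 5419.7 to 5985 in XY Sox9KO and 5871 to 6745 in XY Ctr gonads, with 2 of 10 called lower. None of 8 tested macrophage markers was called, 2 of 3 mesonephros markers were higher and 1 lower, and 4 of 7 germ cell markers were higher and 2 lower.

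Loss of Ctnnb1 changed matrix genes in XX gonads. In XX Ctnnb1KO against XX Ctr gonads 8 of 36 members were called higher and 3 lower, where 4.81% of all genes tested were called higher and 5.32% lower. The median log2 difference was 0.11 over the members and 0.0035 over all genes tested. The higher calls were Col4a1, Col4a2, Nid1 and Nid2 of the basement membrane and Col1a2, Fbln2, Bgn and Tnc of the interstitium, and the lower calls were Col18a1, Col9a3 and Thbs2.

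Thbs2 was 238, 408, 253 and 217 in XX Ctnnb1KO gonads, all far below the XX Ctr arrays, which held 1401 to 1612. The 5.28-fold fall (-2.40 ± 0.15, adjusted p = 1.26e-12) was the widest among the members, and 2 other Thbs2 probe sets differed by -2.28 and -2.36. Tnc was 876, 1135, 968 and 1012 in XX Ctnnb1KO gonads, above every XX Ctr array (1.47 ± 0.14, adjusted p = 2.96e-09). Thus 1 matricellular gene fell and another rose in the same gonads. Fbln2 was 327, 394, 263 and 282 in XX Ctnnb1KO gonads, also without overlap with XX Ctr (0.96 ± 0.19). Nid1 was 4768, 5185, 4804 and 4839.9 in XX Ctnnb1KO gonads, a rise of 0.55 ± 0.05 (adjusted p = 8.59e-09). Nid2 was 1851, 1695, 1919 and 1869 in XX Ctnnb1KO gonads and 1312, 1289, 1277 and 1298 in XX Ctr gonads, with no overlap (0.50 ± 0.09).

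The collagen IV genes rose together, Col4a1 by 0.33 ± 0.08 and Col4a2 by 0.30 ± 0.09, each without overlap between groups. Bgn rose by 0.37 ± 0.08 and Col1a2 by 0.25 ± 0.08. Col18a1 was 996, 993, 1139.6 and 1182 in XX Ctnnb1KO gonads and 1151, 1483, 1699 and 1749 in XX Ctr gonads (-0.48 ± 0.12), and XX Ctr replicate 1 lay within the knockout range. Col9a3 was 73.2, 115, 76.9 and 82.2 in XX Ctnnb1KO gonads, below every XX Ctr array (-0.76 ± 0.23), at signals near or under the array medians. No laminin chain was called on the probe set used, and Lamb1 was 0.15 ± 0.06 (adjusted p = 0.141). Weaker Lamb1 probe sets, not tested on their own, differed by more, at 0.37, 0.45 and 0.53. Without replicate 4, the array with low Xist, 10 of these 11 calls held, Thbs2 was at -2.30 and Tnc at 1.46, and Col9a3 moved to -0.75 with an adjusted p of 0.0612. The Col1a2 call was lost without any 1 of XX Ctr replicates 1, 2 or 4 or XX Ctnnb1KO replicates 1 or 2 (0.17 to 0.26, adjusted p up to 0.175). That of Col4a2 was lost without XX Ctr replicate 1 or 2 or XX Ctnnb1KO replicate 2 or 3 (0.25 to 0.29, adjusted p up to 0.0925), and that of Col18a1 without XX Ctr replicate 4 (-0.40, adjusted p = 0.0536). The Col9a3 call was also lost without XX Ctr replicate 1, 3 or 4 or XX Ctnnb1KO replicate 1 or 3 (adjusted p up to 0.081).

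In XY gonads that kept Sox9, Ctnnb1 loss left no member past the threshold. In XY Ctnnb1KO against XY Ctr gonads 0 of 36 members were called by limma, against 0.00849% higher and 0.0594% lower of all genes tested. The 4 members with an unadjusted p under 0.05 were Col18a1 (-0.42), Lama4 (-0.19), Hspg2 (-0.27) and Col9a3 (-0.66). The share of all genes tested with such a p is not given here, so that count is only a description. Thbs2 averaged 355 ± 37.9 in XY Ctnnb1KO and 365 ± 76.0 in XY Ctr gonads, and Tnc averaged 586 ± 91.4 in XY Ctnnb1KO and 526 ± 77.2 in XY Ctr gonads (SD, n = 4 each). The effect of Ctnnb1 loss differed between XY and XX gonads in 4 members, where 2.45% of all genes tested were called higher in XY and 1.75% lower. These were Thbs2 (2.38 ± 0.22), Tnc (-1.32 ± 0.19), Fbln2 (-1.30 ± 0.26) and Nid1 (-0.52 ± 0.08). All 4 were called without the low-Xist array too, at 2.28, -1.31, -1.34 and -0.52.

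Loss of both genes in XX gonads was set against the same XX Ctr arrays. In XX DKO against XX Ctr gonads 12 of 36 members were called higher and 2 lower, where 7.29% of all genes tested were called higher and 5.61% lower. The median log2 difference was 0.23 over the members and 0.01 over all genes tested. Thbs2 was 260.3, 306, 207 and 224 in XX DKO gonads (-2.53 ± 0.15, adjusted p = 4.32e-13), and Tnc was 1097, 879.8, 1039 and 979.6 (1.47 ± 0.14). For both genes every XX DKO array lay outside the XX Ctr range. Nid1 was 5915, 5336, 5322 and 5510.0 in XX DKO gonads, above every XX Ctr array (0.72 ± 0.05, adjusted p = 4.14e-11).

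Col4a1 (0.46 ± 0.08), Col4a2 (0.47 ± 0.09), Lamb1 (0.39 ± 0.06) and Nid2 (0.34 ± 0.09) were also higher in XX DKO gonads. Of the interstitial genes, Fbln2 (0.72 ± 0.19), Col6a2 (0.46 ± 0.10), Col5a1 (0.44 ± 0.12), Col6a1 (0.43 ± 0.10), Col1a2 (0.35 ± 0.08) and Bgn (0.26 ± 0.08) were higher. Col9a3 was lower (-0.67 ± 0.23), but its groups overlapped, with 152, 50.3, 112 and 79.9 in XX DKO gonads. Its call was lost without any 1 XX Ctr array or XX DKO replicate 2 or 4 (-0.72 to -0.44, adjusted p up to 0.202). The Bgn call was lost without XX Ctr replicate 2 or 3 or XX DKO replicate 1, 2 or 4 (0.20 to 0.27, adjusted p up to 0.147). The Nid2 call was lost without XX DKO replicate 4 (0.27, adjusted p = 0.064). That of Col5a1 was lost without XX Ctr replicate 2 (0.39, adjusted p = 0.0501). That of Col1a2 was lost under quantile normalization (0.15, adjusted p = 0.228) and with the mean of all probe sets (0.26, adjusted p = 0.0583). Set directly against XX Ctnnb1KO gonads, XX DKO gonads had 0 members called by limma, as were 0% of all genes tested in each direction. An unadjusted p under 0.05 was reached by 8 members, led by Col18a1 (0.53 ± 0.12) and Lamb1 (0.24 ± 0.06). The share of all genes tested with such a p is not given here. Without the low-Xist array the count of called members was again 0.

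In XX Ctnnb1KO and in XX DKO against XX Ctr gonads, 6 of 7 pregranulosa cell markers were lower and 1 was higher, with summed signal of 6617 to 7951 in XX Ctnnb1KO and 6762 to 7802 in XX DKO gonads. Of the 8 tested macrophage markers 5 were higher in XX Ctnnb1KO and 7 in XX DKO gonads, at 4925 to 9131 in XX Ctnnb1KO, 6718 to 8174 in XX DKO and 2977 to 5168 in XX Ctr gonads. Of 4 tested peritubular myoid and smooth muscle markers 2 were higher in both, at 4583 to 6490.2 in XX Ctnnb1KO and 5013 to 7101 in XX DKO gonads. Of 4 tested fetal Leydig cell markers 3 were higher and 1 was lower in both, while their sums, 1476 to 3172 in XX Ctnnb1KO and 1792 to 2564 in XX DKO gonads, overlapped those of XX Ctr. Of 3 tested mesonephros markers 1 was higher and 2 were lower in both. Of 9 Sertoli cell markers 4 were higher in both, and 1 was lower in XX Ctnnb1KO and 2 in XX DKO gonads. The part of these cells in the matrix differences was not tested.

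In XY gonads that lacked Sox9, the further loss of Ctnnb1 changed 17 members. In XY DKO against XY Sox9KO gonads 14 of 36 members were called higher and 3 lower, where 11.1% of all genes tested were called higher and 10.8% lower. The median log2 difference was 0.26 over the members and -0.02 over all genes tested. Higher calls were 7 basement membrane genes (Col4a1, Col4a2, Lama2, Lama4, Lamb1, Nid1 and Nid2) and 7 interstitial genes (Col6a1, Fn1, Vcan, Fbln2, Fbln5, Bgn and Tnc). Lower calls were Col18a1, Col9a3 and Thbs2.

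Tnc was 1115, 1234 and 1319 in the 3 XY DKO gonads, against 401, 361, 492 and 408 in XY Sox9KO gonads. Every XY DKO array lay above every XY Sox9KO array (1.53 ± 0.15, adjusted p = 3.33e-09). Vcan was 1325, 1308 and 1659.7 in XY DKO gonads, again above every XY Sox9KO array (1.13 ± 0.13), and below every XY Ctr array (-1.14 ± 0.13). Other Vcan probe sets almost as bright differed by 0.62 and 0.84 against XY Sox9KO, and by -1.53 and -1.33 against XY Ctr. Lama2 was 709.9, 735 and 661 in XY DKO gonads, between both groups in the same way (0.90 ± 0.19 against XY Sox9KO and -0.70 ± 0.19 against XY Ctr).

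Nid1 was 5555, 5387 and 5569.6 in XY DKO gonads, 0.66 ± 0.06 above XY Sox9KO, and within the range of XY Ctr (-0.02 ± 0.06, not called). Nid2 was 2067, 2084 and 1871 in XY DKO gonads, above every array of XY Sox9KO (0.74 ± 0.10) and of XY Ctr (0.41 ± 0.10). Versican thus lay below XY Ctr, Nid1 within its range and Nid2 above it in the same gonads. Thbs2 was 266, 259 and 279.6 in XY DKO gonads, 5.17-fold below XY Sox9KO (-2.37 ± 0.17, adjusted p = 4.69e-12). Col9a3 was 46.7, 75.9 and 82.2 in XY DKO gonads, below every XY Sox9KO array (-1.03 ± 0.24). It also lay below every XY Ctr array. Because these XY DKO signals lie under the array medians, the size of both differences depends on the offset added before the log, from -1.20 with an offset of 1 to -0.73 with 64 against XY Sox9KO, and from -4.52 to -3.61 against XY Ctr.

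Of the other calls, Fbln2 (0.94 ± 0.20), Fbln5 (0.59 ± 0.17), Lamb1 (0.52 ± 0.07), Col6a1 (0.40 ± 0.11) and Bgn (0.39 ± 0.09) did not overlap between XY DKO and XY Sox9KO. Col4a1 (0.31 ± 0.09), Col4a2 (0.27 ± 0.10), Lama4 (0.27 ± 0.09) and Fn1 (0.25 ± 0.07) rose by smaller steps, and a weaker Lama4 probe set differed by -0.16. Col18a1 was lower (-0.41 ± 0.13). The Col4a2 call was lost without XY Sox9KO replicate 1 or 2 or XY DKO replicate 4 (0.16 to 0.26, adjusted p up to 0.299). That of Lama4 was lost without XY Sox9KO replicate 1, 2 or 3 or XY DKO replicate 3 (0.23 to 0.25, adjusted p up to 0.0681). The Col18a1 call was lost without any 1 of XY Sox9KO replicate 4 and XY DKO replicate 3 and 4 (-0.43 to -0.27, adjusted p up to 0.217). That of Col4a1 was lost without XY DKO replicate 3 (0.27, adjusted p = 0.0567). That of Fbln5 was lost without XY DKO replicate 4 (0.52, adjusted p = 0.0584). That of Fn1 was lost without any 1 of XY Sox9KO replicate 3 and XY DKO replicate 2 and 3 (0.19 to 0.22, adjusted p up to 0.0689). That of Col6a1 was lost with only the arrays of the comparison (0.40, adjusted p = 0.0524).

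Against XY Ctr gonads, XY DKO gonads had 16 of 36 members called lower and 3 higher, where 7.61% of all genes tested were called lower and 9.62% higher. The median log2 difference was -0.31 over the members and 0.04 over all genes tested. The 3 higher calls were Tnc (1.20 ± 0.15), Thbs1 (1.15 ± 0.20) and Nid2. The weaker Tnc probe set differed by only 0.36. Thbs1 was 404, 470.1 and 552 in XY DKO gonads, above every XY Ctr array. Besides Col9a3, Vcan and Lama2, the lower calls were Fbln2 (-0.78 ± 0.20), Col11a1 (-0.73 ± 0.18), Col4a2 (-0.65 ± 0.10), Col4a1 (-0.60 ± 0.09) and Lama4 (-0.56 ± 0.09), and, by smaller steps, Bgn, Col18a1, Fn1, Fbln1, Lamc1, Col1a2, Sparc and Col1a1 (-0.52 to -0.25). One of the weaker Fbln1 probe sets differed by 0.09. Thbs2 (-0.40), Lamb1 (-0.06) and Dcn (-0.58) were not called. The Fbln1 call was lost without any 1 of XY Ctr replicate 1, 2 and 3 and XY DKO replicate 2, 3 and 4 (-0.47 to -0.38, adjusted p up to 0.12). That of Lamc1 was lost without any 1 of XY Ctr replicate 1, 2 and 3 and XY DKO replicate 2 and 4 (-0.42 to -0.32, adjusted p up to 0.139). That of Col1a1 was lost without any 1 of XY Ctr replicate 1, 3 and 4 and XY DKO replicate 3 and 4 (-0.26 to -0.23, adjusted p up to 0.0931). That of Col18a1 was lost without XY DKO replicate 4 (-0.36, adjusted p = 0.0809). With the mean of all probe sets of a gene, the calls of Fbln2 (-0.28, adjusted p = 0.262) and Col11a1 (-0.43, adjusted p = 0.0655) were lost as well.

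**Figure D3:**
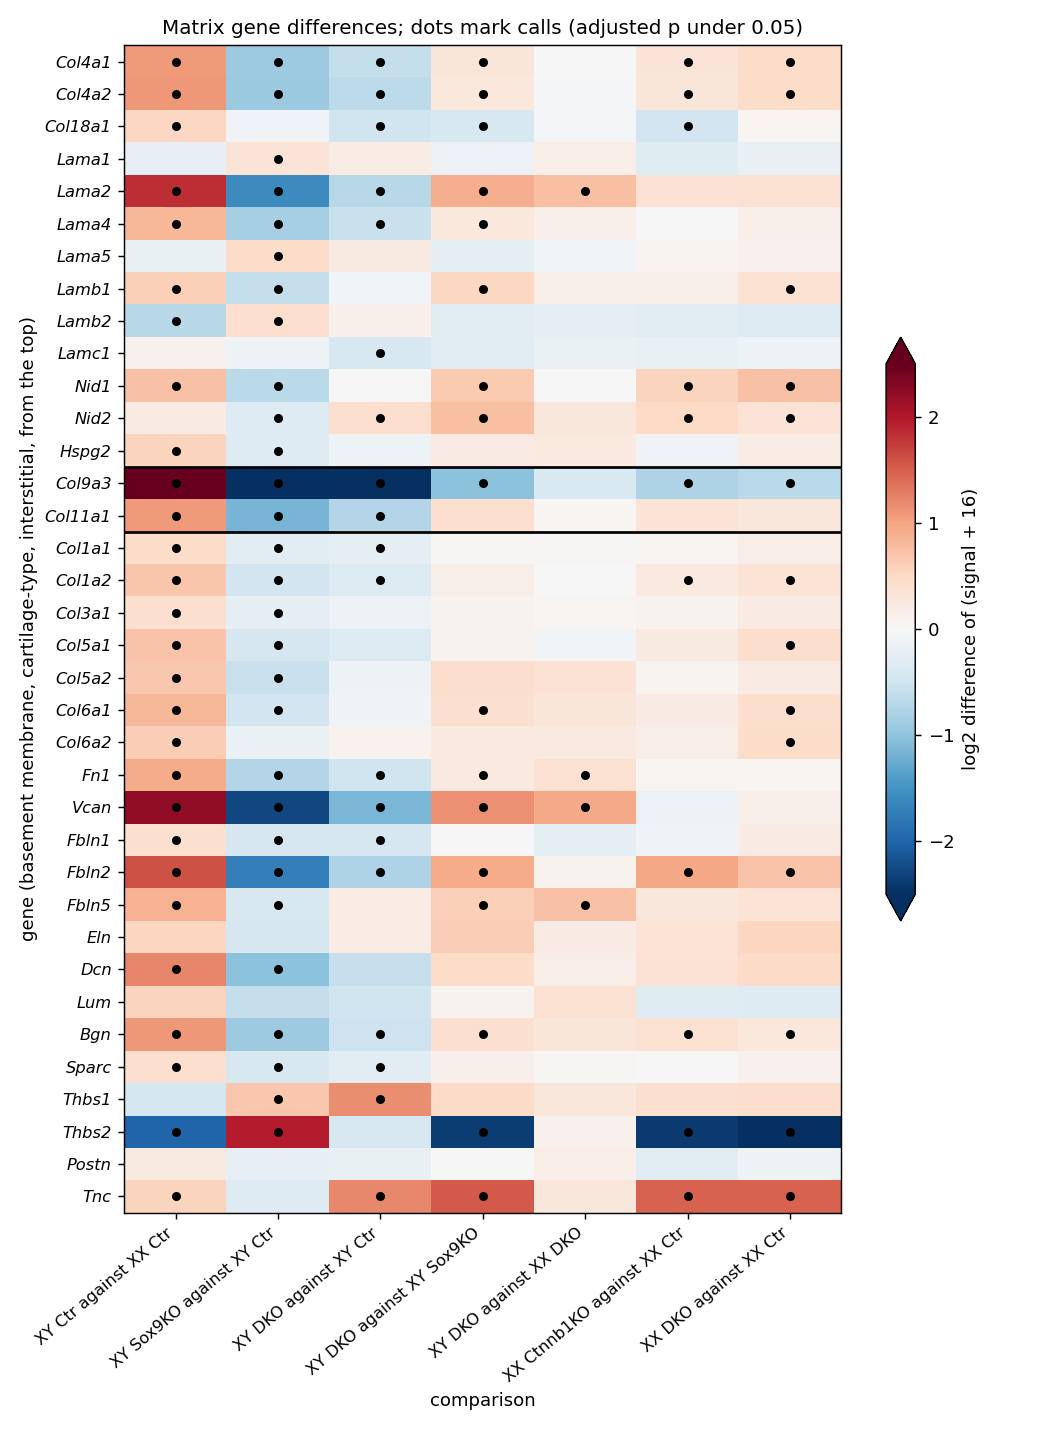
Log2 differences of signal + 16 (colour, red higher and blue lower in the first-named group, cut at 2.5 either way) of the 36 tested members (rows) in 7 comparisons (columns), with lines between basement membrane, cartilage-type and interstitial genes. Black dots mark calls at an adjusted p under 0.05, of which XY Ctr against XX Ctr has 28 and XY Sox9KO against XY Ctr 29.

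Where both genes were lost, 4 members were called higher in XY than in XX gonads and 0 lower. In XY DKO against XX DKO gonads these were Vcan, Fn1, Lama2 and Fbln5, where 3.45% of all genes tested were called higher and 1.77% lower. Vcan was 1325, 1308 and 1659.7 in XY DKO gonads and 850.2, 737, 623 and 710.0 in XX DKO gonads (0.96 ± 0.13, adjusted p = 1.98e-05). Other Vcan probe sets almost as bright differed by less, at 0.48 and 0.71. Fn1 was 3467, 3439.8 and 3112 in XY DKO gonads and 2429, 2516, 2464 and 2825 in XX DKO gonads (0.38 ± 0.07). None of the 4 overlapped between the groups. Fbln5 differed by 0.73 ± 0.17 and Lama2 by 0.75 ± 0.19. The Lama2 call was lost without XX DKO replicate 3 or 4 or XY DKO replicate 2 or 3 (0.65 to 0.74, adjusted p up to 0.0716), and that of Fbln5 without XY DKO replicate 4 (0.65, adjusted p = 0.0514). With only the arrays of the comparison the Fn1 call was lost (adjusted p = 0.0727), as was that of Lama2 (adjusted p = 0.089).

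The effect of Ctnnb1 loss in XY gonads was compared without and with Sox9. It differed in 10 members, 9 higher and 1 lower without Sox9, where 5.27% of all genes tested were called higher and 4.47% lower. The 9 were Tnc (1.38 ± 0.20), Fbln2 (1.27 ± 0.27), Vcan (1.15 ± 0.18), Lama2 (1.0045 ± 0.26), Nid1 (0.63 ± 0.08), Nid2 (0.60 ± 0.13), Lamb1 (0.52 ± 0.09), Col6a1 (0.47 ± 0.15) and Lama4 (0.46 ± 0.12), and Thbs2 was lower (-2.35 ± 0.23). The Col6a1 call was lost without any 1 of XY Ctr replicate 1, 2 and 3 and XY Ctnnb1KO replicate 2, 3 and 4 and XY Sox9KO replicate 1 and 2 and XY DKO replicate 2 and 4 (0.41 to 0.49, adjusted p up to 0.0911). That of Lama4 was lost with the mean of all probe sets (0.33, adjusted p = 0.0877).

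XY DKO against XY Sox9KO and XX Ctnnb1KO against XX Ctr both ask what Ctnnb1 loss does where Sox9 is absent or low, and they share no array. Over the 36 members the log2 differences of these comparisons had a Pearson correlation of 0.908 and a Spearman correlation of 0.792, given as a description, since genes are not independent. Without Thbs2, the lowest point, they were 0.817 and 0.774 over 35 members, and without the low-Xist array 0.899 and 0.778 over 36. Both called 10 members, and in all 10 the direction was the same: Bgn, Col4a1, Col4a2, Fbln2, Nid1, Nid2 and Tnc were higher and Col18a1, Col9a3 and Thbs2 lower. These 10 were 10 of 17 calls in XY and 10 of 11 calls in XX. Neither the correlations nor the shared calls were worked out over all genes tested, so they do not set the members apart. Without the low-Xist array 9 of the 10 held, Col9a3 being lost in XX, and the calls of Col4a2 in both comparisons, Col18a1 in both and Col4a1 in XY were each lost without some other single arrays, as given above. With only the arrays of the comparison, Col4a1, Col4a2 and Col18a1 were lost in XY (adjusted p = 0.0771, 0.147 and 0.0921). Col18a1 was then lost in XX too (adjusted p = 0.0553). The XY call of Col4a2 was also lost under quantile normalization, with no filter and with the replicate block (adjusted p up to 0.061). A test of the difference between these effects, chosen after their values were seen, called Vcan (1.28 ± 0.18, adjusted p = 6.33e-05) and Lamb1 (0.37 ± 0.09, adjusted p = 0.0303), both higher in XY, where 0.934% of all genes tested were called higher and 0.187% lower. The Lamb1 call was lost without any 1 of XX Ctr replicate 2, XX Ctnnb1KO replicate 3, XY Sox9KO replicates 3 and 4 and XY DKO replicates 2 and 3 (0.34 to 0.37, adjusted p up to 0.0795). It was also lost with no filter, with only the arrays of the comparison and with the mean of all probe sets (adjusted p up to 0.276). Without the low-Xist array Vcan was at 1.35 and Lamb1 at 0.40, both called.

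**Figure D4:**
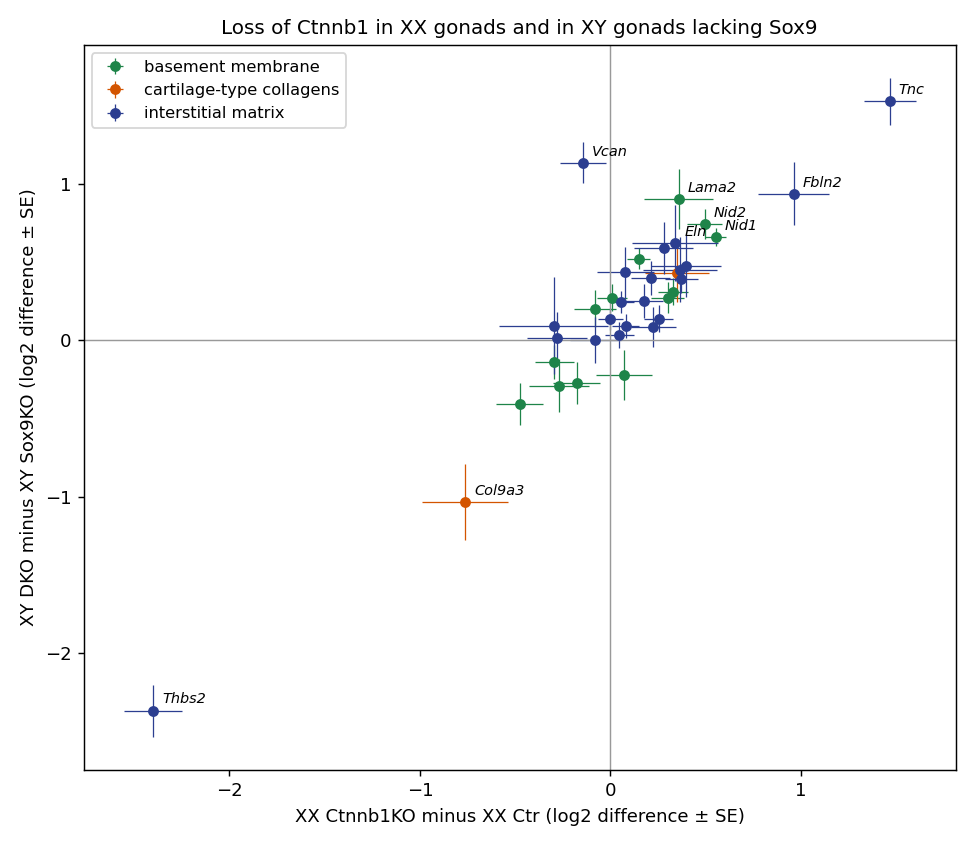
Log2 differences of signal + 16 (points with SE bars) of the 36 tested members in XX Ctnnb1KO against XX Ctr (x axis) and XY DKO against XY Sox9KO (y axis), coloured by class. Thbs2 lies lowest on both axes, Tnc highest on both, and Vcan is high in XY alone.

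In XY DKO against XY Sox9KO gonads 7 of 8 tested macrophage markers were higher, with summed signal of 7353 to 9372 in XY DKO and 3903 to 4751 in XY Sox9KO gonads. All 4 tested fetal Leydig cell markers were higher, at 12099 to 15674 in XY DKO and 1948 to 2426 in XY Sox9KO gonads. Of 9 Sertoli cell markers 4 were higher and 1 was lower (5564 to 5968 in XY DKO), 6 of 7 pregranulosa cell markers were lower and 1 was higher (5577 to 6724 in XY DKO), and 2 of 4 peritubular myoid and smooth muscle markers were higher (6582 to 7885 in XY DKO). Of 3 mesonephros markers 1 was higher and 2 lower, of 7 germ cell markers 2 were higher and 1 lower, and of 10 endothelial markers 1 was lower. Their part in the matrix differences was not tested. Against XY Ctr gonads, 6 of 8 macrophage and 6 of 7 pregranulosa cell markers were higher in XY DKO, and 8 of 9 Sertoli, all 4 Leydig and 2 of 4 peritubular markers were lower. Against XX DKO gonads, all 4 Leydig and 4 of 9 Sertoli cell markers were higher in XY DKO, 3 of 7 pregranulosa and 1 of 7 germ cell markers were lower, and no macrophage, endothelial, mesonephros or peritubular marker was called.

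Member genes were set beside those that process, crosslink, bind or degrade the matrix, in lists chosen by function. Of 20 tested genes for collagen processing and crosslinking, 10 were higher and 0 lower in XY Ctr than in XX Ctr gonads, where 18% of all genes tested were higher and 19.8% lower. In XY Sox9KO against XY Ctr gonads 8 were lower and 0 higher, where 16% of all genes tested were lower and 22.7% higher. Pcolce, which speeds removal of the collagen C-propeptide, averaged 4375 ± 479 in XY Sox9KO and 8107 ± 388 in XY Ctr gonads (-0.89 ± 0.08). Lox, the lysyl oxidase that crosslinks collagen and elastin, differed by -0.69 ± 0.17 in that comparison. In XY DKO against XY Sox9KO gonads 5 were higher and 0 lower, where 11.1% of all genes tested were higher and 10.8% lower, and Pcolce was higher by 0.45 ± 0.09.

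Of 17 tested other collagen and laminin chains, 11 were higher and 2 lower in XY Ctr than in XX Ctr gonads, where, as for the 2 lists below, 18% of all genes tested were higher and 19.8% lower. The chains were led by Col4a4 (2.13 ± 0.18), a chain of specialised basement membranes, and Col13a1 (1.84 ± 0.21), a transmembrane collagen. Col12a1, a collagen on the surface of collagen I fibrils, averaged 194 ± 50.4 in XX Ctnnb1KO, 193 ± 5.94 in XX DKO and 570.3 ± 165 in XX Ctr gonads (SD, n = 4 each), lower by the same rule in both (-1.47 ± 0.17 and -1.45 ± 0.17). Of 21 tested matrix receptors, 12 were higher and 3 lower in XY Ctr gonads. Cd44, the hyaluronan receptor, averaged 158 ± 31.6 in XY DKO, 678 ± 69.1 in XY Sox9KO and 93.2 ± 7.21 in XY Ctr gonads, and 177 ± 21.5 in XX Ctnnb1KO and 639 ± 125 in XX Ctr gonads (SD, n = 3 for XY DKO and 4 for the others). Of 17 tested matrix proteases and inhibitors, 8 were higher and 3 lower in XY Ctr gonads, among them Adamts5, which cleaves versican (2.05 ± 0.15), and Adamts19 (-1.60 ± 0.27).

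Among the cartilage genes Cnmd averaged 771 ± 92.8 in XY DKO gonads (SD, n = 3), 24.4 ± 8.92 in XY Sox9KO and 205 ± 26.3 in XY Ctr gonads, and 218 ± 136 in XX Ctnnb1KO, 232 ± 92.7 in XX DKO and 24.8 ± 13.6 in XX Ctr gonads (SD, n = 4 for these groups). Cnmd was called higher in XY DKO than in XY Sox9KO gonads, but its means in XY Sox9KO and XX Ctr gonads lay far below the array medians, so it was tested through the groups where it is high and no fold is given. Acan, the main cartilage proteoglycan, was lower in XX Ctnnb1KO than in XX Ctr gonads (-0.90 ± 0.22).

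Promoter windows were searched for short words of the factors concerned, CTTTGAA or CTTTGAT for TCF/LEF, the DNA-binding partners of beta-catenin, and ACAATG or ACAAAG for SOX proteins, on both strands. Both TCF/LEF words and the reverse complement of ACAAAG begin with CTTTG, but no word of one factor contains a word of the other. RefSeq windows were found for 26 of 38 members. A TCF/LEF word occurred in 4 of 33 member windows, those of Bgn, Col6a2, Col9a1 and Col9a2, and in 8.65% of all windows. A SOX word occurred in 1 member window, that of Col3a1, and in 28.6% of all windows. The Bgn window (plus strand, GRCm38.p6, chrX:73483351-73483650) is shown because Bgn was called higher in XX Ctnnb1KO against XX Ctr and in XY DKO against XY Sox9KO gonads, though not in XY Ctnnb1KO against XY Ctr (0.02), with its TCF/LEF word at position 105 in capitals, 5′ to 3′.
Bgn: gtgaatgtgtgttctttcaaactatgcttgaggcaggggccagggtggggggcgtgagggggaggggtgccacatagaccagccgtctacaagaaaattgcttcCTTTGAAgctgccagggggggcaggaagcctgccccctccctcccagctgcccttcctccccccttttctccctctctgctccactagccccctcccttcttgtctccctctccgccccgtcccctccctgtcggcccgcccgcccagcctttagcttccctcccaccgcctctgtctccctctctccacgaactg
A match describes these letters and shows no binding, and no match says nothing of the factor. Col6a2, the other tested member with a TCF/LEF word, was called neither in XX Ctnnb1KO against XX Ctr (0.17) nor in XY DKO against XY Sox9KO (0.25).

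Second probe sets of the called members mostly pointed the same way. Other probe sets were counted when above the array median on at least 3 arrays. Of these, 32 of 32 shared the called direction in XY Ctr against XX Ctr and 30 of 31 in XY Sox9KO against XY Ctr. The counts were 11 of 11 in XX Ctnnb1KO against XX Ctr and 16 of 16 in XX DKO against XX Ctr. They were 20 of 21 in XY DKO against XY Ctr and 17 of 18 in XY DKO against XY Sox9KO. The 3 that did not were those of Hspg2, Fbln1 and Lama4 given above. Dimmer probe sets were not counted, and some differed the other way, such as one of Fbln2 in XY DKO against XY Ctr (0.23).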

How the data were processed

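Gene expression was measured on 31 arrays, 1 pair of gonads each, in 8 groups taken from the sample labels, so p-values measure the spread between pairs of gonads. Deposited values are linear signal intensities, for which the submitters' processing notes name MAS5 (version not given in the sources used here), scaled per array. Depth has no meaning for arrays, and the number of arrays limits the precision.

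The array held 45101 probe sets, of which 64 were controls, 34945 had 1 gene symbol in the platform annotation, 932 several and 9160 none. Log2(signal + 16) was fitted with limma 3.58.1 (R 4.3.3) as 1 mean per group, with a mean-variance trend in the empirical Bayes step, over 11777 genes above the array median on at least 3 arrays. Contrasts were adjusted by Benjamini and Hochberg over all genes tested. Folds are on the log2(signal + 16) scale and understate the change of dim genes. The fit was run on simulated data with independent normal noise and known changes in the XX Ctnnb1KO group. Those data follow the model of the fit, so that run checks the code and not the calls. Array values were described with Python 3.11.15, numpy 2.4.6 and pandas 2.3.3, and promoter windows came from RefSeq (GRCm38.p6).

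The members and lists were chosen with earlier results of these data known. All members were named, each with a level or a difference in at least 1 comparison. Called members were given with their change, most with its SE, and some only as a range. From other lists up to 3 called genes were named by size. Alternatives were offsets of 1 and 64, quantile normalization, no filter, only the arrays of the comparison, the replicate number as a block, the mean of all probe sets, and each array left out. The labels do not say whether replicate numbers pair the arrays. Deviations of same-numbered arrays of different groups had a median correlation of -0.0133 over 105 pairs (lowest -0.4482, highest 0.5368). A median near that of unrelated arrays cannot exclude that some arrays were paired, so the block was kept as an alternative.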

Additional observations from a re-analysis of the deposited data

Results flagged for a closer look

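In some groups 1 array stood far from the other 3, with a gap to its nearest neighbour that passed Dixon's 95% critical value for 4 samples. Of 266 groups of 4 arrays tested, 16 did so, where chance gives about 1 in 20. The array stood below the other 3 of its group for Lama2 on XX Ctr replicate 4 (260.77, against 323.13 to 328.1), Nid2 on XY Ctnnb1KO replicate 1 (1466.23, against 1732.62 to 1734.71), Col9a3 on XX Ctr replicate 2 (140.44, against 159.9 to 163.34), Col1a1 on XY Sox9KO replicate 1 (9192.61, against 9744.51 to 9816.11), Col6a2 on XY Ctr replicate 4 (6188.7, against 7438.54 to 7602.99), Fn1 on XX Ctr replicate 3 (2266.21, against 2533.59 to 2565.92), Fbln5 on XY Sox9KO replicate 1 (672.81, against 898.9 to 943.3), Lum on XY Ctnnb1KO replicate 2 (720.21, against 1273.16 to 1302.58) and Postn on XY Ctnnb1KO replicate 2 (459.9, against 661.95 to 701.57). The array stood above the other 3 of its group for Lama4 on XY Sox9KO replicate 4 (1046.43, against 804.58 to 836.93), Col9a2 on XX Ctr replicate 3 (112.04, against 74.63 to 79.59), Col1a2 on XY Ctnnb1KO replicate 1 (18559.3, against 15044.8 to 15468.5), Fbln1 on XY Ctnnb1KO replicate 1 (3475.18, against 2512.14 to 2625.36), Eln on XX DKO replicate 2 (1552.66, against 963.85 to 1058.18), Bgn on XY Ctnnb1KO replicate 1 (7227.09, against 6065.59 to 6124.83) and Postn on XX Ctnnb1KO replicate 2 (711.15, against 458.34 to 499.23). XY Ctnnb1KO replicate 1 held 4 of the 16 values. The group of 3 XY DKO arrays was not tested in this way.

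Effects that differed between groups by the limma interaction term, at an adjusted p under 0.05, were the following. The log2 effect of Ctnnb1 loss differed between XY and XX gonads (XY minus XX) for Nid1 (-0.5182), Fbln2 (-1.2965), Thbs2 (2.3778) and Tnc (-1.3188). The effect of Sox9 loss differed between XY and XX gonads (XY minus XX) for Col4a1 (-1.0586), Col4a2 (-1.0649), Lama2 (-1.7357), Lama4 (-0.9173), Lamb1 (-0.5756), Nid1 (-0.6335), Col9a3 (-3.0589), Col11a1 (-1.329), Col1a1 (-0.4946), Col1a2 (-0.7406), Col3a1 (-0.4063), Col5a1 (-0.6649), Col5a2 (-0.8085), Col6a1 (-0.5869), Fn1 (-0.7489), Vcan (-2.3226), Fbln2 (-1.825), Fbln5 (-0.7796), Dcn (-1.1932), Bgn (-1.1538), Sparc (-0.5099), Thbs2 (1.8883) and Tnc (-0.7665). The effect of Ctnnb1 loss in XY gonads differed without and with Sox9 (without minus with) for Lama2 (1.0045), Lama4 (0.4591), Lamb1 (0.5157), Nid1 (0.6251), Nid2 (0.5972), Col6a1 (0.4748), Vcan (1.1508), Fbln2 (1.27), Thbs2 (-2.346) and Tnc (1.3793). The effect of Ctnnb1 loss in XY gonads lacking Sox9 was also set against that in XX gonads (XX Ctnnb1KO against XX Ctr). These XX gonads had Sox9 floxed on 1 allele only. In this comparison, chosen after seeing the data, the effect differed (XY minus XX) for Lamb1 (0.3745) and Vcan (1.2789).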

How the results depend on the processing

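Across all alternatives, the 162 calls of members gave 2690 checks, of which 161 lost the call and 0 changed direction. At least 1 setting or left-out array ended 35 of the calls. In XY DKO against XX DKO the count of 4 members became 2 with only the arrays of the comparison, where Fn1 and Lama2 were lost, and 3 to 5 with an array left out. The single call in XY Sox9KO against XX Ctr became 0 under quantile normalization, with no filter, with only the arrays of the comparison and with the mean of all probe sets, and lay between 0 and 2 with an array left out. The comparison of Ctnnb1 loss between XY gonads lacking Sox9 and XX gonads had 2 calls. Their count became 1 with no filter, with only the arrays of the comparison and with the mean of all probe sets. With an array left out it lay between 1 and 2. The cause was not tested in any of these. With an array left out the other counts lay between 27 and 29 (XY Ctr against XX Ctr), 26 and 30 (XY Sox9KO against XY Ctr), 8 and 10 (XX Ctnnb1KO against XX Ctr), 11 and 15 (XX DKO against XX Ctr), 15 and 19 (XY DKO against XY Ctr) and 13 and 19 (XY DKO against XY Sox9KO). The mean of all probe sets lost 17 calls, among them Fbln5 in 4 comparisons, only the arrays of the comparison 17, no filter 9, quantile normalization 6 and an offset of 64 lost 1. Summed over all comparisons there were 157 calls of members with the replicate block, against 162 without it. With the block 28 members were called in XY Ctr against XX Ctr, 28 in XY Sox9KO against XY Ctr and 16 in XY DKO against XY Sox9KO. Same-numbered arrays are not stated to be paired, and 8 of 31 arrays were closest to their own number. Probe sets near or below the array median, as for Col9a3 outside XY Ctr and XY Ctnnb1KO, are limited by signal over background.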
